A study of Caenorhabditis elegans with 15 samples.

Results

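The cytochrome P450 genes of C. elegans were taken as all genes whose symbol begins with cyp- in the symbols supplied with the counts, which gave 75 genes of the 21882 counted. Messenger RNA was measured in whole young adults of the wild-type strain N2 and of fbxa-215(syb4404) mutants (strain SX3678), in which the whole coding sequence of the F-box gene fbxa-215 is deleted. At 20 °C, with collection about 48 hours after plating, each strain gave 4 libraries. At 25 °C, with collection about 36 hours after plating, N2 gave 4 libraries and the mutants 3. All animals were fed HB101 bacteria and came from synchronised first-stage larvae of parents kept at 20 °C. The mutant is a single allele, and no rescued or second deletion strain was used here. Because temperature, time after plating and growth batch change together, they cannot be told apart in any comparison of 25 with 20 °C.

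Cytochrome P450 enzymes are haem proteins that insert oxygen into lipids, steroids and foreign compounds, with electrons passed on by a reductase and, for some reactions, by cytochrome b5. In C. elegans the family is large, with many tandem copies, and its members take part in the handling of foreign compounds, in the making of fatty acid signals and hormones, and in building the lipid-rich layer of the eggshell. Enzymes of the CYP2 type, which include the cyp-14, cyp-33, cyp-34, cyp-35 and cyp-36 families, are the largest group in this animal, and many of them are known for expression in the intestine.

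Library depth ranged from 10842744 to 28391866 estimated counts, with mutant replicate 4 at 20 °C the deepest. In N2 the fbxa-215 gene had at least 1364 counts per library, while the mutants had 0 to 2, so the genotype labels matched in all libraries. The 8 germline and oocyte markers summed to 4266 to 5020 CPM (counts scaled to library size) in N2 at 20 °C, 3515 to 3673 in mutants at 20 °C, 3006 to 3629 in N2 at 25 °C and 2743 to 2978 in mutants at 25 °C. The 8 intestine markers summed to 4275 to 5126, 4806 to 5472, 5122 to 5562 and 5605 to 6560 CPM in the same order. Of this, asp-1 gave a mean of 2401 CPM in N2 at 20 °C. At the FDR threshold 3 of the 8 were higher and 1 lower in mutants at 20 °C, and 5 were higher and 2 lower at 25 °C. With temperature 5 were higher in N2 and 4 in mutants, and 0 were lower. Over all genes the shares higher were 7.71%, 6.97%, 23.0% and 13.6%. None of these 16 genes was called with a fold change above 2 between strains or temperatures, but the sums move with strain and temperature. Some other markers moved too. At the FDR threshold 4 of 4 muscle genes were higher at 25 than at 20 °C in mutants, against 13.6% of all genes. Between strains at 25 °C, 3 of 4 muscle and 2 of 4 neuron genes were higher in mutants, against 6.97%. Of 28 tested msp- genes of sperm, 11 were lower with temperature in mutants (4 of them called), against 11.9% of all genes (0.571% called lower). Between strains at 25 °C, 7 msp- genes were lower in mutants, against 5.12%. With temperature in N2, 7 were higher and 4 lower, against 23.0% and 22.1%. No epidermis marker passed the FDR threshold in any comparison. The part of any of these in the P450 results was not tested. In whole animals, fewer cells of a type and less RNA per cell cannot be told apart.

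Only part of the family gave enough reads to test. Of the 75 genes, 3 had no count in any of the 15 libraries (cyp-35A1, cyp-35B2 and cyp-35B3), and 11 in all never exceeded 3 counts, a floor that equals 0.103 to 0.278 CPM depending on the library. The filter on low counts kept 48 genes in at least 1 comparison. The other 27 reached at most 20 counts in a library and were left out of the main tests. Among the untested genes was cyp-13A12, which makes fatty acid signals during reoxygenation after low oxygen. It had 1, 3, 2 and 1 counts in N2 and 1, 5, 5 and 17 in mutants at 20 °C, and 6, 3, 1 and 2 in N2 and 5, 8 and 9 in mutants at 25 °C, with the 17 in the deepest library. Another was cyp-35B1, a target of the insulin pathway factor DAF-16. The counts of cyp-35B1 were 1, 1, 0 and 0 in N2 at 20 °C and 12, 3, 7 and 5 in N2 at 25 °C, without overlap, and 1, 6, 2 and 2 and then 6, 3 and 7 in mutants, with overlap. With no filter on low counts it was called higher at 25 °C in N2, and the count of members called there was 6. Most of the family lies on chromosome V, with 42 genes, followed by chromosome II with 12, chromosomes IV and X with 7 each, chromosome III with 6 and chromosome I with 1.

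The most abundant P450 transcripts per kilobase of exon were those of the cyp-31A genes. In N2 at 20 °C cyp-31A2 (chromosome IV, 11403961 to 11406091 on WBcel235) stood first at 50.4 CPM per kb, followed by cyp-31A5 at 34.7 and cyp-31A3 at 34. CYP-31A2 and CYP-31A3 act with the P450 reductase EMB-8 to make lipids of the eggshell permeability barrier. These genes are close copies, so how reads were divided between them is uncertain. Next came cyp-44A1, the P450 of mitochondrial type, at 24.4 CPM per kb, and then cyp-35A2 at 15.2. Exons of cyp-44A1 overlap those of npp-24 on the same strand, which averaged 53.0 CPM in N2 at 20 °C. How reads were divided between cyp-44A1 and npp-24 is uncertain too. cyp-31A2 led in all 4 groups, while in mutants at 25 °C cyp-35A2 stood next to it, at 37.8 CPM per kb. The median of the 48 tested members in N2 at 20 °C was 2.99 CPM per kb, against 10.3 for all genes tested. The plot of levels by gene shows this steep order.

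**Figure D1:**
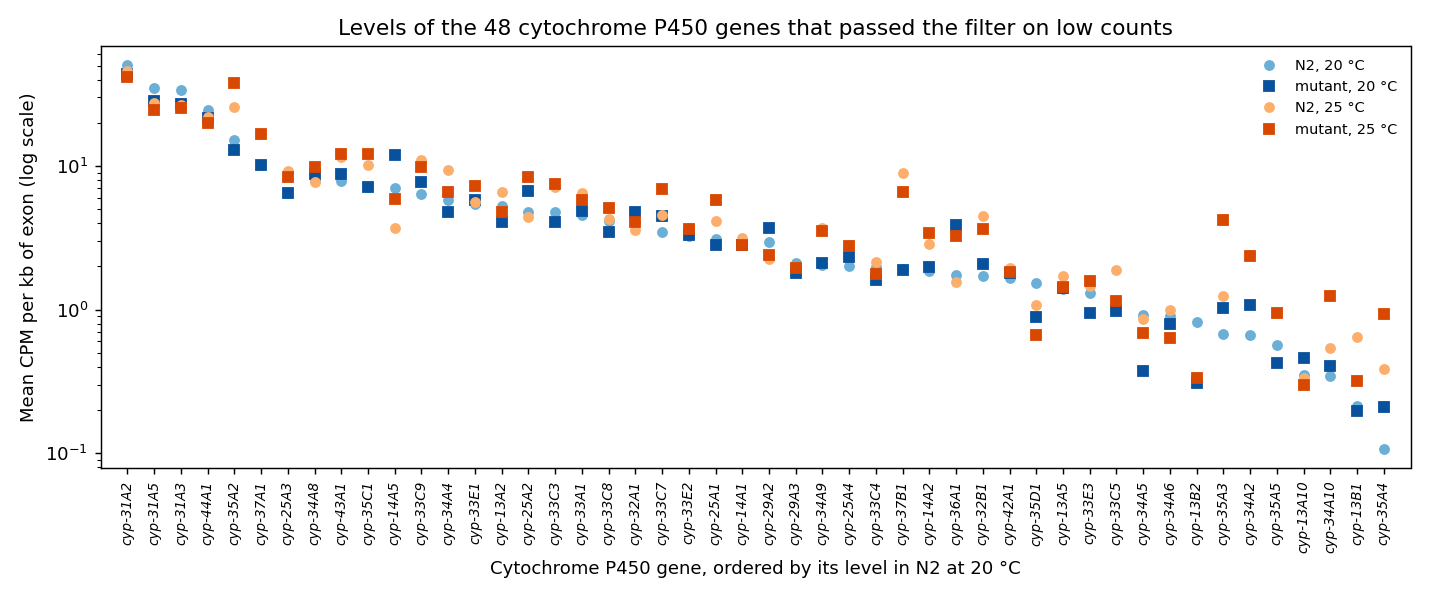
Mean level of each of the 48 tested cytochrome P450 genes in the 4 groups, in CPM per kb of exon on a log axis, with genes ordered by their level in N2 at 20 °C. Each point is the mean of 3 or 4 libraries. The cyp-31A genes, cyp-44A1 and cyp-35A2 lead the order, and cyp-35A2, cyp-37B1 and cyp-35A3 are among the genes whose 25 °C points sit well above their 20 °C points.

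Summed over all 75 genes, P450 transcripts made up 471 to 495 CPM in N2 and 443 to 467 CPM in mutants at 20 °C. At 25 °C the sums were 521 to 545 CPM in N2 and 534 to 580 CPM in mutants. The 2 temperatures did not overlap in either strain, and the strains did not overlap at 20 °C. The 3 cyp-31A genes moved against the rest. Their sum was 179 to 194 CPM in N2 and 152 to 156 in mutants at 20 °C, and 148 to 164 and 135 to 149 at 25 °C, while the other 72 genes summed to 287 to 308, 291 to 311, 373 to 384 and 390 to 446 CPM in that order. The share of the summed P450 level that came from cyp-31A genes was 37.8 to 40.3% in N2 at 20 °C and 23.2 to 27.2% in mutants at 25 °C.

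The mutants were compared with N2 at each temperature to ask which P450 genes differ when fbxa-215 is missing. At 20 °C, 3 of 44 tested members were called (edgeR FDR under 0.05 and a fold change above 2), 1 higher and 2 lower, while 1.49% of all genes tested were called (1.23% higher and 0.251% lower). At 25 °C, 3 of 46 were called, all higher, against 1.92% of all genes (1.31% higher and 0.614% lower). Only cyp-36A1 was called at both temperatures. Without the fold threshold the counts were 9 at 20 °C (2 higher, 7 lower) where 13.5% of all genes passed (7.71% higher and 5.77% lower), and 5 at 25 °C (all higher) where 12.1% passed (6.97% higher and 5.12% lower). At an unadjusted p under 0.05 there were 11 members at 20 °C and 14 at 25 °C, next to 32.3% and 29.2% of all genes. The libraries of the strains did not overlap for 11 members at 20 °C and 11 at 25 °C, and for 21.3% and 24.7% of all genes. The median log2 fold change of the members was -0.01 at 20 °C and -0.02 at 25 °C, next to 0.01 and 0.00 over all genes.

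The gene that was higher in mutants at both temperatures was cyp-36A1 (chromosome I, 8341682 to 8346023), which in C. elegans acts downstream of the oxygen-sensing EGL-9 and HIF-1 pathway in behaviour. At 20 °C its level was 3.47, 2.55, 2.96 and 3.30 CPM in N2 and 6.46, 7.57, 3.61 and 9.70 CPM in mutants. At 25 °C it was 3.16, 1.91, 3.31 and 2.49 CPM in N2 and 4.46, 4.48 and 8.22 CPM in mutants. Every mutant library was above every N2 library of its temperature, although mutant replicate 3 at 20 °C was close to N2. The log2 fold change was 1.18 (SE 0.26, edgeR FDR 0.018) at 20 °C and 1.06 (SE 0.26, edgeR FDR 0.021) at 25 °C, and the change with temperature missed the threshold in both strains (edgeR FDR 0.67 in N2 and 0.49 in mutants). The call at 20 °C was lost without N2 replicate 2 or 3 or mutant replicate 2 or 4, with log2 fold changes of 0.95 to 1.39 and edgeR FDR of 0.0020 to 0.060 over the 8 fits. At 25 °C it was lost without N2 replicate 2 or 4 or mutant replicate 3, with log2 fold changes of 0.70 to 1.21 and edgeR FDR of 0.0041 to 0.15. The gene overlaps exons of figo-1 on the other strand, and the libraries do not mark strand, but figo-1 itself differed by only -0.20 at 20 °C (edgeR FDR 0.095) and 0.04 at 25 °C (edgeR FDR 0.79) on the log2 scale.

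**Figure D2:**
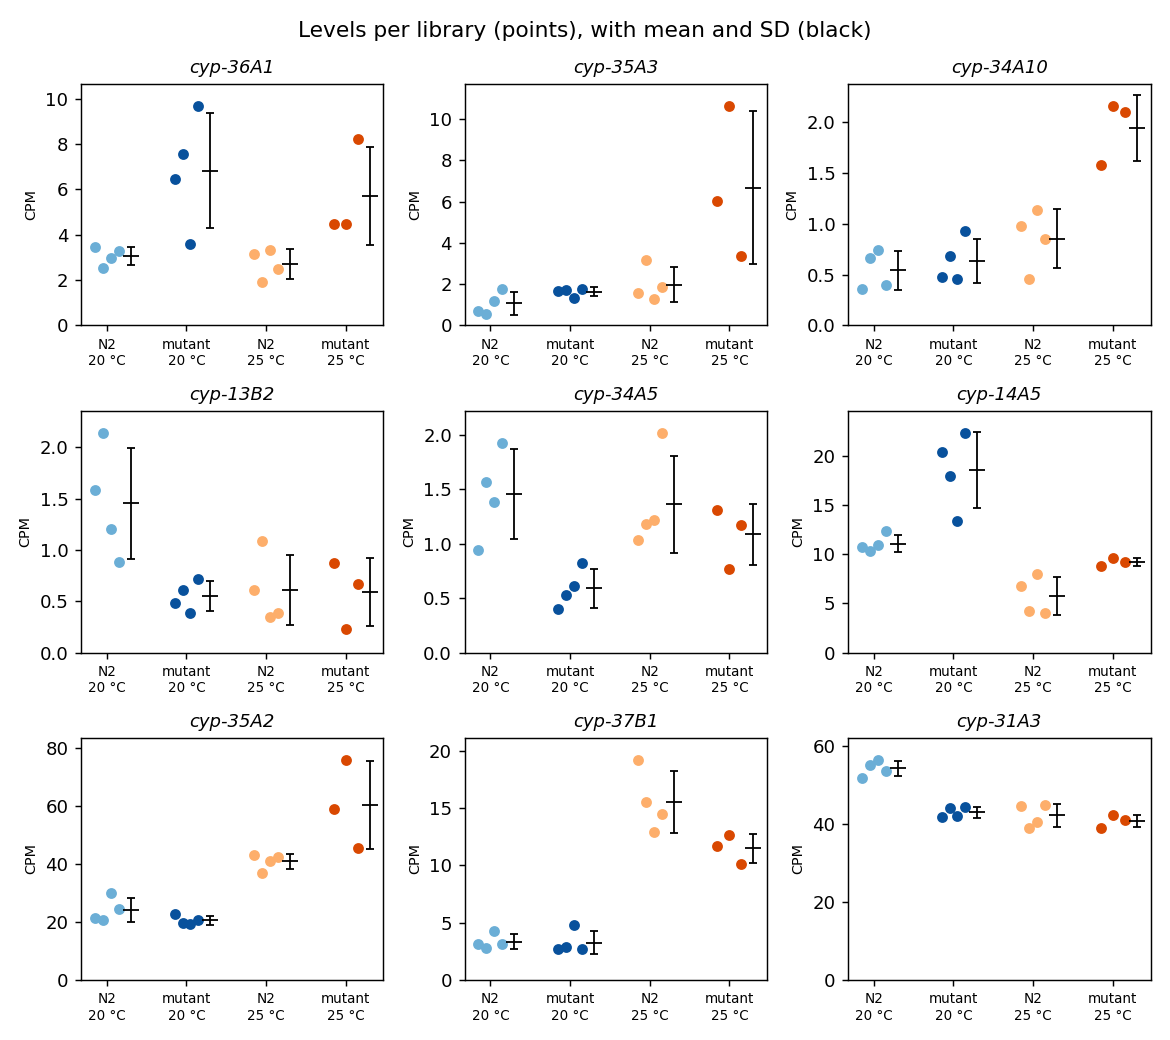
Level of 9 cytochrome P450 genes in each library, in CPM, with 1 point per library and the mean and SD of each group in black. The mutants lie above N2 at both temperatures for cyp-36A1, cyp-37B1 rises with temperature in both strains, and cyp-35A2, cyp-35A3 and cyp-34A10 are highest in mutants at 25 °C.

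The other genes called at 20 °C were lower in mutants, and both were rare. cyp-13B2 (chromosome X, 14225573 to 14228785) was at 1.59, 2.14, 1.20 and 0.885 CPM in N2 and 0.479, 0.605, 0.384 and 0.720 CPM in mutants, a log2 fold change of -1.33 (SE 0.35, edgeR FDR 0.030). cyp-34A5 was at 0.939, 1.57, 1.39 and 1.93 CPM in N2 and 0.399, 0.530, 0.615 and 0.822 CPM in mutants, a log2 fold change of -1.20 (SE 0.33, edgeR FDR 0.036). In both genes all N2 libraries were above all mutant libraries, but both calls depended on single libraries, and DESeq2 did not call cyp-13B2. cyp-13B2 kept its call only without N2 replicate 4 or mutant replicate 4, and cyp-34A5 only without N2 replicate 1 or mutant replicate 4. Over the 8 such fits the edgeR FDR reached 0.099 for cyp-13B2 and 0.097 for cyp-34A5.

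Smaller differences at 20 °C passed the FDR threshold alone. The 3 cyp-31A genes were all lower in mutants, with log2 fold changes of -0.20 for cyp-31A2 (edgeR FDR 0.036), -0.28 for cyp-31A5 (edgeR FDR 0.025) and -0.32 for cyp-31A3 (edgeR FDR 0.012). The level of cyp-31A3 was 51.8, 55.3, 56.5 and 53.6 CPM in N2 and 41.7, 44, 42 and 44.3 CPM in mutants. That of cyp-31A2 was 81.3, 85.3, 82.9 and 79.5 CPM in N2 and 70.5, 70.7, 71.6 and 70.5 CPM in mutants. That of cyp-31A5, which overlaps an opposite-strand gene, was 47.6, 53, 47.6 and 45.8 CPM in N2 and 39.7, 38.5, 39.3 and 40.9 CPM in mutants. None of the 3 genes overlapped between the strains at 20 °C. Of the 8 germline and oocyte markers, 6 were also lower at this FDR, against 5.77% of all genes. The median log2 fold change of the 8 was -0.40. The part of the germline in the cyp-31A values was not tested. cyp-25A3 and cyp-35D1 were lower too, with log2 fold changes of -0.46 and -0.79. cyp-14A5 (chromosome V, 5421018 to 5423282) was higher, at 10.7, 10.3, 10.9 and 12.3 CPM in N2 and 20.3, 17.9, 13.4 and 22.3 CPM in mutants (log2 fold change 0.76, SE 0.15, edgeR FDR 0.011). At 25 °C cyp-14A5 was at 6.75, 4.18, 8.01 and 4.04 CPM in N2 and 8.83, 9.57 and 9.15 CPM in mutants, again without overlap, but its log2 fold change of 0.67 missed the threshold (edgeR FDR 0.060).

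At 25 °C, cyp-35A3 and cyp-34A10 were called higher in mutants as well, both from a run of neighbouring cyp-34 and cyp-35 genes on chromosome V. The cyp-35A enzymes are inducible by foreign compounds and affect fat storage in C. elegans. cyp-35A3 (4022609 to 4024482) was at 1.58, 3.18, 1.31 and 1.87 CPM in N2 and 6.03, 10.7 and 3.36 CPM in mutants, which did not overlap although the mutant libraries were spread widely (log2 fold change 1.78, SE 0.42, edgeR FDR 0.029). cyp-34A10 (3970702 to 3972991) was at 0.973, 0.454, 1.13 and 0.855 CPM in N2 and 1.57, 2.16 and 2.10 CPM in mutants (log2 fold change 1.17, SE 0.34, edgeR FDR 0.039). The cyp-35A3 call was lost without N2 replicate 1, 3 or 4 or mutant replicate 2 (edgeR FDR up to 0.083 over 7 fits), and the cyp-34A10 call without N2 replicate 1, 2 or 4 or mutant replicate 2 or 3 (edgeR FDR up to 0.15) and with DESeq2. cyp-25A2 and cyp-35A2 were higher at the FDR threshold alone. For cyp-25A2 the levels were 6.27, 8.27, 8.10 and 5.21 CPM in N2 and 11.4, 13 and 15.1 CPM in mutants (log2 fold change 0.93, SE 0.17, edgeR FDR 0.0053), but cyp-25A1, cyp-25A2 and cyp-25A3 are adjacent copies whose estimated counts were fractional in all 15 libraries, and their single values are uncertain.

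**Figure D3:**
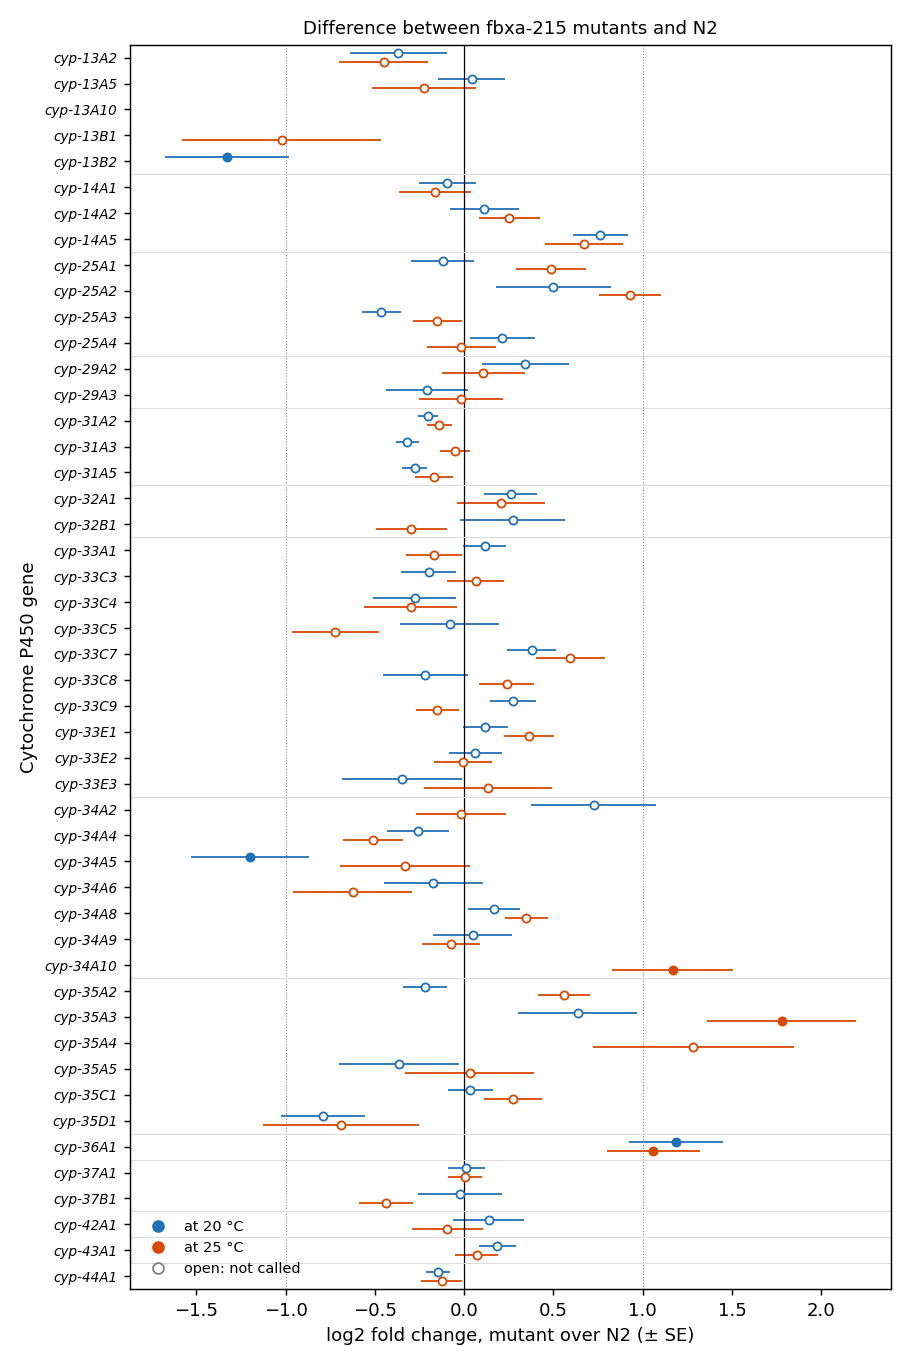
log2 fold change of fbxa-215 mutants over N2 with its SE for each cytochrome P450 gene tested, at 20 °C (blue) and 25 °C (orange), with genes in order of family. Filled points were called (edgeR FDR under 0.05 and a fold change above 2), dotted lines mark a fold change of 2, and a gene without a point was not tested in that comparison. cyp-36A1 is the only gene with filled points at both temperatures.

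More members were called with temperature than with genotype, and most of these were higher at 25 °C. In N2, 5 of 48 tested members were called between 25 and 20 °C, 4 higher and 1 lower, while 6.59% of all genes were called (5.49% higher and 1.09% lower). In mutants 9 of 48 were called, 8 higher and 1 lower, against 3.17% of all genes (2.60% higher and 0.571% lower). At the FDR threshold alone, 21 members passed in N2, 16 higher and 5 lower, next to 45.1% of all genes (23.0% higher and 22.1% lower). In mutants 19 passed, 18 higher and 1 lower, next to 25.5% of all genes (13.6% higher and 11.9% lower). At an unadjusted p under 0.05 there were 26 members in N2 and 25 in mutants, next to 52.5% and 37.6% of all genes, and the temperatures did not overlap for 18 and 21 members, next to 40.5% and 31.6%. The members' median log2 fold change was 0.26 in N2 and 0.30 in mutants, where all genes had 0.07 and 0.04. Both strains gave the same sign for 42 of the 48 members (87.5%, next to 70.8% of all genes), and 32 of them were above 0 in both. cyp-34A2 and cyp-37B1 were called higher in both strains.

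The largest log2 fold change of a member in any comparison was that of cyp-37B1 in N2 (chromosome V, 16278116 to 16280616). Its level was 3.11, 2.80, 4.26 and 3.14 CPM in N2 at 20 °C and 19.2, 15.5, 12.9 and 14.5 CPM at 25 °C. In mutants it was 2.71, 2.88, 4.77 and 2.67 CPM at 20 °C and 11.7, 12.7 and 10.2 CPM at 25 °C. Every library at 25 °C was above every library at 20 °C. The log2 fold change was 2.23 in N2 (SE 0.19, edgeR FDR 1.2e-07) and 1.84 in mutants (SE 0.20, edgeR FDR 4.0e-06), and both calls held in all 15 fits that left out 1 library. On the other strand F28G4.2 overlaps it, with 0 to 14 counts per library. cyp-37A1, its closest family member here, rose by 0.73 on the log2 scale in both strains (edgeR FDR 5.3e-06 in N2 and 2.2e-05 in mutants), below the fold threshold. F01D5.8, which overlaps it on the other strand, rose by 0.61 in N2 (edgeR FDR 0.0010) and gave 0.00 in mutants (edgeR FDR 0.99).

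cyp-34A2 (chromosome V, 15288777 to 15291095) was at 1.08, 0.659, 1.76 and 1.21 CPM in N2 at 20 °C and 3.95, 3.27, 4.18 and 5.60 CPM at 25 °C, with no overlap (log2 fold change 1.86, SE 0.32, edgeR FDR 0.00016). In mutants it was at 1.52, 2.88, 1.15 and 2.06 CPM and then 3.50, 5.95 and 3.10 CPM, again without overlap (log2 fold change 1.13, SE 0.31, edgeR FDR 0.012). The mutant call was lost without mutant replicate 3 at 20 °C or mutant replicate 2 at 25 °C (log2 fold change 0.77 to 1.36 over 15 fits). cyp-32B1 rose from 3.32, 2.14, 3.52 and 2.33 CPM to 9.61, 6.82, 6.53 and 6.45 CPM in N2 (log2 fold change 1.39, SE 0.26, edgeR FDR 0.00037), and in mutants it rose by 0.84 on the log2 scale (edgeR FDR 0.028) with overlapping groups. The rare gene cyp-13B1 was called higher in N2, but its groups overlapped, at 0.161 to 0.722 CPM and 0.182 to 1.79 CPM (edgeR FDR 0.034), and the call was lost without N2 replicate 2, 3 or 4 at 20 °C (edgeR FDR up to 0.10). Without N2 replicate 1, 3 or 4 at 25 °C it did not pass the filter on low counts.

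The cyp-35A genes rose more in mutants than in N2 on the fold scale, a difference that did not pass the test of the interaction. All 4 tested members were called higher at 25 °C in mutants (median log2 fold change 1.79, range 1.15 to 2.14). In N2 none was called and only cyp-35A2 passed the FDR threshold (median log2 fold change 0.82, range 0.74 to 1.68). This N2 result depended on single libraries. cyp-35A4 was called in N2 without N2 replicate 1 at 20 °C or mutant replicate 3 at 25 °C. Without N2 replicate 3 at 20 °C cyp-35A5 was called, and without N2 replicate 4 at 20 °C cyp-35A3 was. cyp-35A2 (chromosome V, 7362319 to 7364182) was at 21.4, 20.8, 29.8 and 24.4 CPM in N2 and 22.5, 19.5, 19.1 and 20.7 CPM in mutants at 20 °C. At 25 °C it was at 43, 36.9, 40.9 and 42.2 CPM in N2 and 59.0, 75.7 and 45.6 CPM in mutants. The libraries at 25 °C were thus above all those at 20 °C in both strains, and the mutants at 25 °C were highest. The log2 fold change with temperature was 0.76 in N2 (SE 0.13, edgeR FDR 0.00026) and 1.56 in mutants (SE 0.14, edgeR FDR 1.1e-06), and the difference between these changes was 0.79 (SE 0.20, unadjusted edgeR p 0.00077, FDR 0.0505), just outside the threshold. For cyp-35A3 the log2 fold change with temperature was 0.88 in N2 (edgeR FDR 0.091) and 2.03 in mutants (edgeR FDR 0.00066), and their difference of 1.15 (SE 0.56) had an edgeR FDR of 0.21. The calls of cyp-35A2 and cyp-35A3 in mutants held in all 15 fits that left out 1 library, while that of cyp-35A4 was lost without mutant replicate 2 at 25 °C (edgeR FDR 0.18) or N2 replicate 2 at 25 °C (where it did not pass the filter) and that of cyp-35A5 without mutant replicate 1, 3 or 4 at 20 °C or mutant replicate 1 or 2 at 25 °C (edgeR FDR up to 0.16).

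No member was called in the test of the difference between the strains' temperature changes (0 of 48 at an edgeR FDR under 0.05), where 1.46% of all genes were (0.743% higher and 0.721% lower). At an unadjusted p under 0.05 there were 4, cyp-35A2, cyp-31A3, cyp-33C9 and cyp-25A1, compared with 24.6% of all genes, and DESeq2 called 1, cyp-35A2. A temperature change called in 1 strain alone is therefore not shown to differ between the strains.

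**Figure D4:**
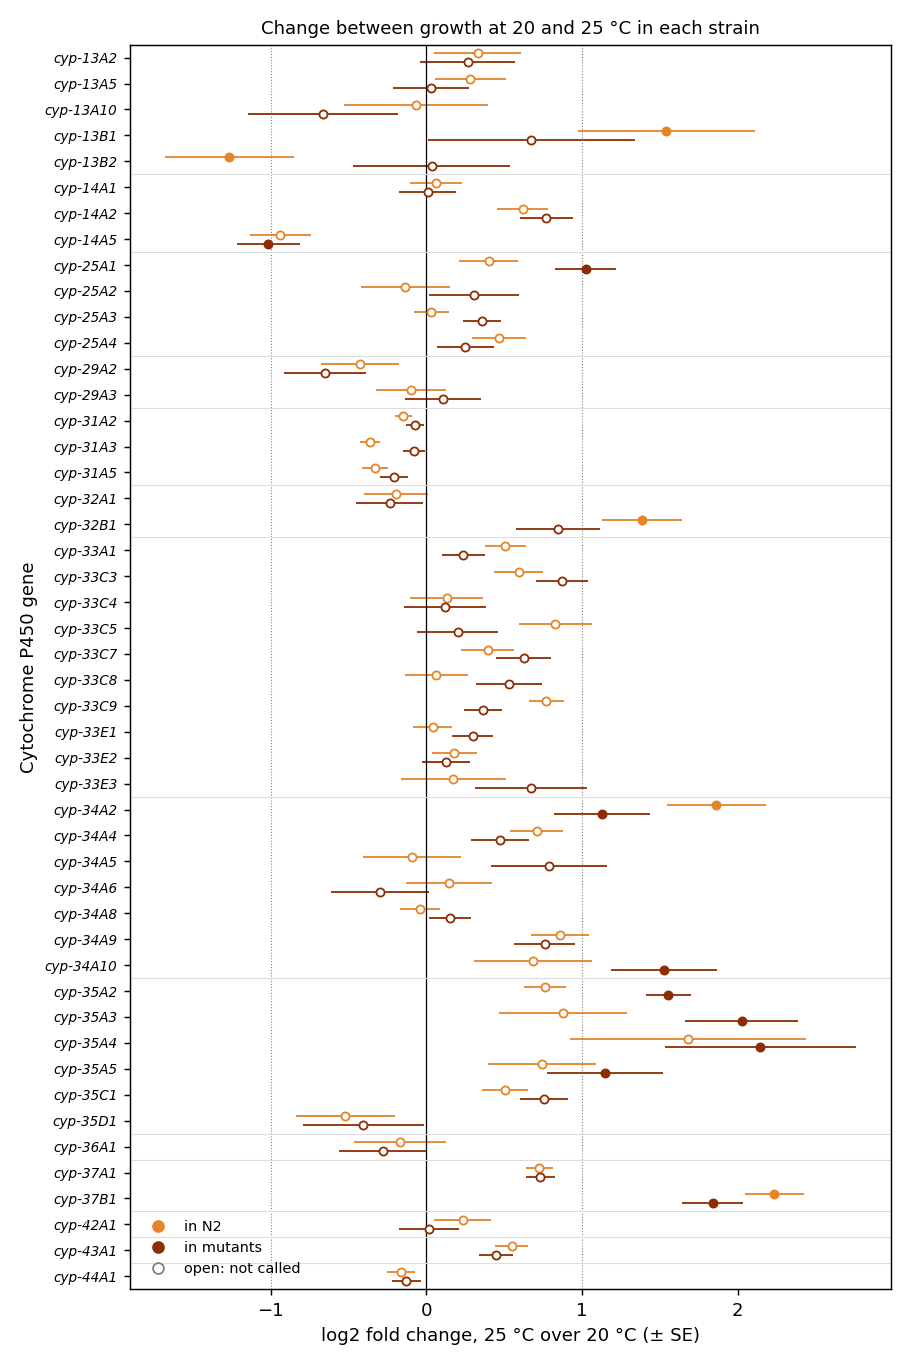
log2 fold change of 25 over 20 °C with its SE for each of the 48 cytochrome P450 genes tested, in N2 (orange) and in fbxa-215 mutants (brown), with genes in order of family. Filled points were called (edgeR FDR under 0.05 and a fold change above 2), and dotted lines mark a fold change of 2. Most points lie above 0 in both strains, and the cyp-31A genes lie below 0 in both.

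All 10 tested cyp-33 genes had log2 fold changes above 0 in both strains, with medians of 0.29 in N2 and 0.33 in mutants, and 4 passed the FDR threshold in N2 and 3 in mutants, where 23.0% and 13.6% of all genes passed it as higher. None of these reached a fold change of 2. cyp-33E2, which makes signals from eicosapentaenoic acid, was at 5.2, 6.34, 5.74 and 5.31 CPM in N2 at 20 °C and 6.08, 7.27, 5.75 and 6.53 CPM at 25 °C (edgeR FDR 0.32). In mutants it was at 4.63, 6.28, 6 and 6.31 CPM and then 6.03, 7.34 and 5.71 CPM (edgeR FDR 0.58). These groups overlapped. cyp-29A3, which also acts in making such signals, was at 3.18 to 4.26, 1.92 to 3.86, 2.80 to 3.92 and 2.47 to 4.2 CPM in N2 and mutants at 20 °C and N2 and mutants at 25 °C, and its log2 fold change with temperature was -0.10 in N2 and 0.11 in mutants (edgeR FDR 0.75 and 0.79). cyp-34A9, another gene controlled by DAF-16, was at 4.33, 4.12, 3.33 and 2.17 CPM in N2 at 20 °C and 7.42, 6.09, 5.75 and 6.06 CPM at 25 °C, and at 3.83, 3.33, 4.07 and 3.15 CPM and then 5.42, 6.41 and 6.29 CPM in mutants. It rose without overlap in both strains, by 0.86 on the log2 scale in N2 (edgeR FDR 0.0012) and by 0.76 in mutants (edgeR FDR 0.0084).

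Genes that were lower at 25 °C were few. cyp-14A5 was lower in both strains, with log2 fold changes of -0.94 in N2 (edgeR FDR 0.00089) and -1.01 in mutants (edgeR FDR 0.0014). Only the mutant value passed the fold threshold, and it no longer did so without mutant replicate 1 or 4 at 20 °C (log2 fold change -1.14 to -0.91 over 15 fits). cyp-13B2 was called lower in N2, from 0.885 to 2.14 CPM at 20 °C to 0.348 to 1.09 CPM at 25 °C, which overlapped (log2 fold change -1.26, edgeR FDR 0.019), and the call was lost without N2 replicate 2 at 20 °C or 3 or 4 at 25 °C (edgeR FDR up to 0.067). In mutants its log2 fold change was 0.03. The 3 cyp-31A genes passed the FDR threshold as lower in N2, with log2 fold changes of -0.15 to -0.36, while in mutants they lay at -0.07 to -0.21 and none passed. Of the 8 germline and oocyte markers, 6 were lower at the FDR threshold in N2 and 6 in mutants, against 22.1% and 11.9% of all genes. Their part in the cyp-31A values was not tested.

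cyp-25A1 was called higher at 25 °C in mutants, from 5.27, 5.15, 3.15 and 4.93 CPM to 7.95, 7.64 and 12.8 CPM (log2 fold change 1.02, SE 0.20, edgeR FDR 0.0010). This value sat at the fold threshold, and only 7 of 15 fits that left out 1 library called it, with log2 fold changes of 0.75 to 1.15. In N2 its change was 0.40 (edgeR FDR 0.091). cyp-14A1, cyp-42A1 and cyp-44A1 passed the FDR threshold in none of the 5 comparisons. Over all 15 libraries cyp-14A1 ranged from 3.41 to 5.62 CPM and cyp-42A1 from 2.25 to 4.04 CPM. For cyp-44A1 the levels were 37.3, 37.6, 39.5 and 36.7 CPM in N2 and 33.7, 32.8, 34.4 and 34.1 CPM in mutants at 20 °C, which did not overlap (log2 fold change -0.15, SE 0.07, edgeR FDR 0.15). At 25 °C they were 31.3, 33.2, 36.7 and 33.8 CPM in N2 and 36.9, 29.6 and 26.2 CPM in mutants, which overlapped. cyp-43A1 rose by 0.55 on the log2 scale in N2 (edgeR FDR 0.00048) and by 0.45 in mutants (edgeR FDR 0.0070), while C41G11.1, which overlaps it on the other strand, fell by 1.38 and 1.17.

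The neighbouring cyp-34 and cyp-35 genes on chromosome V mostly had log2 fold changes above 0 with temperature, but of unlike size. A stretch of 97.1 kb (3936326 to 4033446) holds 13 members among 36 counted genes, of which 9 were tested with temperature. In mutants 8 of the 9 were above 0, with a median of 0.79 and a range of -0.29 to 2.14. In N2 7 were above 0, with a median of 0.71 and a range of -0.09 to 1.68. At the FDR threshold 5 were higher in mutants and 2 in N2, against 13.6% and 23.0% of all genes, and 0 were lower. In mutants 4 were called higher at 25 °C, namely cyp-34A10, cyp-35A3, cyp-35A4 and cyp-35A5, and in N2 none was, next to 2.60% and 5.49% of all genes called higher. For their neighbour cyp-34A8 the log2 fold change with temperature was 0.15 in mutants (edgeR FDR 0.43), and over all libraries of both strains and temperatures it spanned 9.72 to 16.2 CPM. cyp-34A4 rose in N2 by 0.71 on the log2 scale (edgeR FDR 0.0028), from 8.81 to 10.9 CPM to 11 to 18.7 CPM. The 3 most abundant genes of the stretch, cyp-34A8, cyp-34A4 and cyp-34A9, passed the FDR threshold in neither strain comparison, and cyp-34A6 passed it in no comparison.

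**Figure D5:**
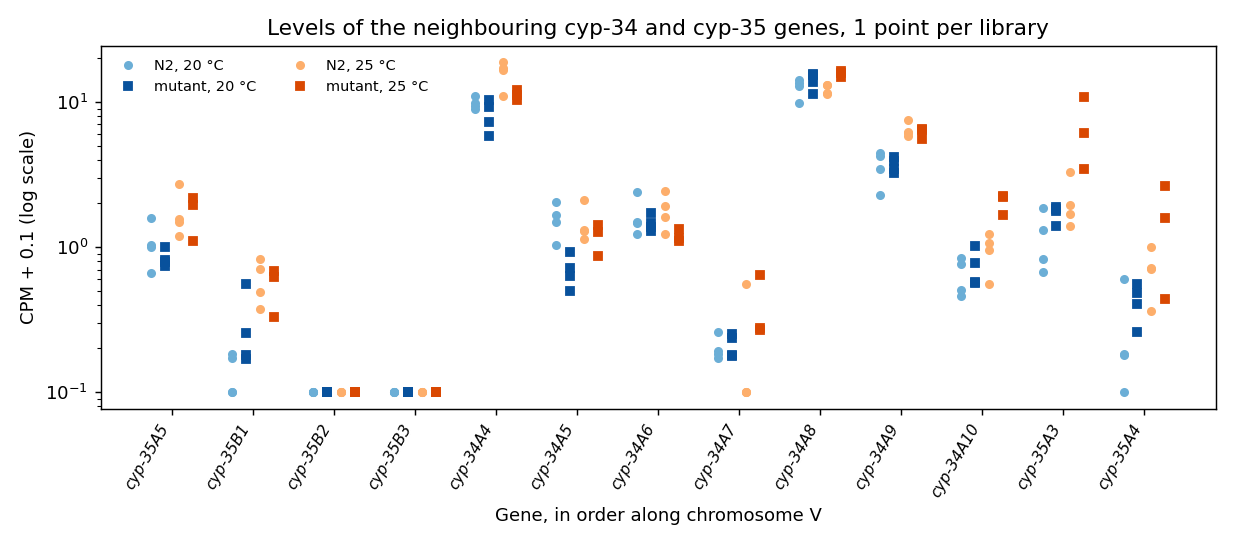
Level of the 13 cytochrome P450 genes in 1 stretch of chromosome V, in gene order, as CPM plus 0.1 on a log axis with 1 point per library. cyp-35A3 and cyp-34A10 sit highest in mutants at 25 °C, cyp-34A8 spans only 9.72 to 16.2 CPM over all libraries, and cyp-35B2 and cyp-35B3 have no counts.

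The proteins that work with P450 enzymes, and a hormone-making P450 named outside the cyp- symbols, were read for comparison. The list held 23 genes: electron transfer partners, the dafachronic acid hormone pathway and regulators of detoxification or the oxygen response. At 20 °C, 1 of 20 tested genes was called higher in mutants, against 1.23% of all genes. It was nhr-114, a nuclear receptor needed on some bacterial diets (log2 fold change 1.08, edgeR FDR 0.038). The strains overlapped for it, at 7.22 to 13.3 CPM in N2 and 11.3 to 27.2 CPM in mutants. At 25 °C, 1 of 21 was called higher, against 1.31% of all genes. It was daf-9, the P450 that makes dafachronic acid (log2 fold change 1.05, edgeR FDR 0.041). Whether the nhr-114 and daf-9 calls hold without single libraries was not examined. At 20 °C daf-9 was at 2.38, 2.47, 1.02 and 1.37 CPM in N2 and 1.20, 1.59, 1.84 and 2.06 CPM in mutants, and at 25 °C it was at 0.730, 0.909, 0.871 and 0.855 CPM in N2 and 1.57, 1.78 and 1.85 CPM in mutants. The strains overlapped at 20 °C and did not at 25 °C. In N2, daf-9 fell by 1.12 on the log2 scale between 20 and 25 °C (edgeR FDR 0.0061), while in mutants its change was 0.03 (edgeR FDR 0.96), and the difference between the strains was 1.15 (edgeR FDR 0.12). Between the temperatures 2 of 21 genes were called higher and 1 lower in N2, against 5.49% and 1.09% of all genes. In mutants 0 were called, against 3.17% of all genes. At the FDR threshold alone 5 of 21 passed in mutants, all higher, against 13.6% of all genes. In N2 6 were higher and 5 lower, against 23.0% and 22.1%. Between strains at 25 °C, 7 of 21 were higher at this threshold and 0 lower, against 6.97% and 5.12%. At 20 °C, 4 of 20 were higher in mutants and 1 lower, against 7.71% and 5.77%. The test of the interaction called 1, din-1, a partner of the receptor DAF-12 (log2 difference 0.54, edgeR FDR 0.041). cytb-5.1, a cytochrome b5 gene, was higher at the FDR threshold in all 4 comparisons, with log2 fold changes of 0.47, 0.55, 0.56 and 0.66, all under a fold change of 2. The reductase gene emb-8 was higher with temperature in mutants (log2 fold change 0.31, edgeR FDR 0.014) and stayed at -0.02 in N2. The regulators included elt-2, which is also among the intestine markers above, so these lists are not separate. At the FDR threshold 5 of 13 tested regulators were higher in mutants at 25 °C and 0 lower. Over all genes 6.97% were higher and 5.12% lower. At 20 °C, 2 of 12 were higher and 0 lower, against 7.71% and 5.77%. Among the 5 were egl-9 and rhy-1, 2 negative regulators of HIF-1 that are also its targets. They were higher in mutants at 25 °C by 0.71 (edgeR FDR 0.0028) and 0.86 (edgeR FDR 0.021) on the log2 scale. At 20 °C they gave 0.32 (edgeR FDR 0.069) and 0.14 (edgeR FDR 0.72). A link of either gene with cyp-36A1 was not tested.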

How the data were processed

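Whole-animal, poly-A enriched, non-directional libraries were read as 150-base pairs; per the labels the submitters' processing notes name Trimmomatic 0.39, Salmon 1.5.1, DESeq2 and build WBcel235. The deposited gene tables hold estimated counts from the authors' quantification, which were rounded to whole numbers here. The deposited comparison tables hold the authors' log2 fold changes, mean signal and p-values; they were used only for gene symbols. Positions and exon lengths came from Ensembl release 115 of WBcel235. Genes were filtered with filterByExpr (minimum count 10, minimum total 15), scaled by TMM and tested with edgeR 4.0.16 quasi-likelihood (R 4.3.3). Strain was tested within each temperature (8 and 7 libraries), temperature and the interaction in 1 fit over 15 libraries. P-values were adjusted by Benjamini-Hochberg over all genes tested; called means an FDR under 0.05 and a fold change above 2 (no fold threshold for the interaction). SEs are approximate, from the fold change and F. CPM are on the TMM scale of all 15 libraries. The labels do not say whether replicates are separate cultures, so p-values measure the spread between these libraries, which may be technical. No 2 libraries were duplicates by a chi-square test of counts. On simulated counts with 200 changed genes at 20 °C, edgeR recovered 100%. These changes were larger than a fold change of 2 and were placed only in well counted genes. Recovery of smaller changes, or of changes in rare members such as cyp-13B2, was not tested.

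Named genes were those called between strains or in the interaction, the 6 largest rises and falls with temperature among called members that did not overlap and averaged 50 or more counts in the higher group, the 5 highest in CPM per kb in N2 at 20 °C, and members with a known role with daf-9 beside them; any other gene named was chosen after its values were seen. The cyp- members and the lists were chosen with earlier results of these data known. cyp-34A4 carries that symbol in the 25 °C table only. Exon overlaps touched 8 members. Alternatives were other scaling, DESeq2 1.42.0, other filters, a fold-based test, a replicate block, other sample sets and leaving out each library. No sequence is shown.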

Additional observations from a re-analysis of the deposited data

Results flagged for a closer look

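In 4 groups, 1 of 4 libraries lay far from the others for a named gene. For cyp-14A1 it was N2 replicate 1 at 25 °C, at 5.35 CPM where the others had 4.61 to 4.74. For cyp-25A1 it was mutant replicate 3 at 20 °C, at 3.15 CPM against 4.93 to 5.27. For cyp-32B1 it was N2 replicate 1 at 25 °C, at 9.61 CPM against 6.45 to 6.82. For cyp-37B1 it was mutant replicate 3 at 20 °C, at 4.77 CPM against 2.67 to 2.88. Chance alone marks about 1 in 20 such groups, and 61 were examined.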

How the results depend on the processing

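Counts of called P450 genes were recomputed under each alternative. With at least 10 counts in every library they were 1 for strain at 20 °C, 2 for temperature in N2, 4 in mutants and 1 for the interaction. With the replicate number as a block they were 1 for strain at both temperatures, 4 and 8 for temperature and 0 for the interaction, and cyp-36A1 at 25 °C had an edgeR FDR of 0.060; the numbers do not pair the libraries, since same-numbered libraries correlated at -0.35 to 0.23. Without the fold threshold they were 9, 5, 21 and 19, and with a test against a fold change of 2 they were 0, 0, 1 and 2 (strain at 20 and 25 °C, temperature in N2 and mutants). DESeq2 called 1 gene, cyp-35A2, for the interaction. Leaving out 1 library gave 0 to 2 for strain at 20 °C, 0 to 4 at 25 °C, 3 to 6 for temperature in N2, 6 to 9 in mutants and 0 to 1 for the interaction. The other alternatives stayed within 1.5 times the main counts. No named gene reversed direction in a comparison where the main fit or the alternative called it. Sign changes of genes called in neither were not counted. Strain calls rest on 3 or 4 libraries a group. Of the 27 genes under the filter, the 3 with no count in any library entered no fit. The others entered only the fits with no filter, which called 6 members for temperature in N2, among them cyp-35B1. DESeq2 lost cyp-13B2 for strain at 20 °C and cyp-34A10 at 25 °C, and the block lost both and cyp-34A5 at 20 °C. The causes of these shifts were not tested.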
